A study of Mus musculus with 28 samples.

Results

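Scavenger receptors are surface proteins with which macrophages take up modified lipoproteins, microbes and debris, and several of them, with a group of other surface proteins and regulators, are used as markers of alternative activation, the state that macrophages adopt with IL-4 or IL-13. The 8 genes described here, Mrc1, Cd163, Chil3, Pparg, Cd36, Marco, Olr1 and Scarb1, were chosen by name for these roles. Earlier results of these data were known when they were chosen. All 8 were found in the count table, which held 54532 genes, 30159 of them with at least 1 count. Mrc1 encodes the mannose receptor CD206, Cd163 the receptor for haemoglobin-haptoglobin complexes, and Chil3 the secreted chitinase-like protein Ym1. Marco is a class A scavenger receptor with a collagen-like stem, Cd36 and Scarb1 are class B receptors for lipids and lipoproteins, and Olr1 encodes LOX-1, a C-type lectin that binds oxidised low-density lipoprotein. Pparg encodes PPARγ, a nuclear receptor that pairs with RXR and drives genes of lipid uptake and storage, Cd36 among them. In the textbook account, IL-4 raises Mrc1 and Chil3, and microbial products such as lipopolysaccharide (LPS) raise Marco.

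RNA was sequenced from 28 cultures of bone marrow-derived macrophages (BMDMs) of adult C57/B6JB mice, grown with the growth factor M-CSF. They received plasma-derived von Willebrand factor (VWF), the plasma protein that tethers platelets at vascular injury, at 10 µg/ml, LPS at 100.0 ng/ml, or phosphate-buffered saline (PBS) as the control, and were collected at 3.5 h or 16 h. At each time there were 5 control, 5 VWF and 4 LPS cultures, and the medium of every group, controls included, was supplemented with 1 mM CaCl2. The labels call them biological replicates, but whether a replicate was 1 mouse or pooled mice is not given in the sources used here, so the p-values measure the spread between these cultures.

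Total counts were 41131209 to 77699206 per culture. The scaling factors (TMM, which correct for differences in RNA composition) were 0.735 to 0.848 in LPS cultures against 0.945 to 1.18 in controls and 0.971 to 1.12 in VWF cultures. All 10 macrophage markers reached 1 CPM (the count scaled by the TMM-adjusted library size) in every group, at summed levels of 6236 to 26627 CPM, the highest of them in the VWF cultures at 16 h (19468 to 26627 CPM). Of markers of other cells, T and NK cell genes summed to at most 0.379 CPM and erythroid genes to at most 0.209 CPM. B cell genes summed to 1.23 to 14.2 CPM, nearly all from Cd79b, and eosinophil, basophil and mast cell genes summed to 2.04 to 14.6 CPM, most of it Siglecf. Stromal genes (Col1a1, Col1a2, Dcn, Pdgfrb) summed to 16.7 to 398 CPM. Dendritic cell genes summed to 0.893 to 2.09 CPM in controls, to 13.8 to 19.3 CPM with VWF and 22.1 to 27.4 CPM with LPS at 3.5 h, and to 1.17 to 4.31 CPM with VWF and 20.02 to 40.9 CPM with LPS at 16 h, of which Xcr1 and Ccr7 gave most while Flt3 stayed at or under 0.205 CPM. Endothelial genes summed to 49.8 to 89.1 CPM with LPS at 16 h and to 7.24 to 11.9 CPM with VWF at 16 h. Over all cultures Kdr reached 67.9 CPM and Vwf 30.4 CPM, while Cdh5 stayed at or under 2.88 CPM and Tek at or under 0.153 CPM. The part of these cells in the results was not tested, and in bulk RNA fewer cells of a type and less RNA per cell cannot be told apart. Control replicate 5 at 16 h stood apart from its group, with a mean correlation of 0.910 with the other 4 cultures, followed by LPS replicate 4 at 16 h with 0.946, against 0.969 to 0.988 for the other cultures. Values without these 2 cultures stand beside the results of Mrc1, Pparg, Cd36, Marco, Olr1 and Scarb1 that passed the test with them or pass it without them, and the fits with low counts, used for Cd163, Chil3 and Olr1 at 16 h, were not repeated without them.

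Promoters of 4 of the genes are shown first, each from 250 bases before to 50 bases after the RefSeq start site on the coding strand (build GRCm38.p6), with Marco and Olr1 as the genes that rose, Pparg as the gene that fell with both treatments at both times, and Cd36 as a known Pparg target. Capitals mark matches, on either strand, to 5 motifs that were searched: the kappaB consensus, the AP-1 site TGANTCA, the antioxidant response element TGACNNNGC, the interferon-stimulated response element and the nuclear receptor half-site AGGTCA. Of the 32851 mouse promoters of this length, 8.46% held the first, 7.81% the second, 12.4% the third, 3.44% the fourth and 16.3% the last.
Marco, chr1:120504975-120505274, minus strand: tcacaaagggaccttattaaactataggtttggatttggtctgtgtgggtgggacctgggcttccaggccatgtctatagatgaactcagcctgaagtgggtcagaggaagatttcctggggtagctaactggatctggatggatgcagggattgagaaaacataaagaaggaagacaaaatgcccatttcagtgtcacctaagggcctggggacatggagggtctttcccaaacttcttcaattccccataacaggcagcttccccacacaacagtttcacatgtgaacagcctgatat
Olr1, chr6:129507116-129507415, minus strand: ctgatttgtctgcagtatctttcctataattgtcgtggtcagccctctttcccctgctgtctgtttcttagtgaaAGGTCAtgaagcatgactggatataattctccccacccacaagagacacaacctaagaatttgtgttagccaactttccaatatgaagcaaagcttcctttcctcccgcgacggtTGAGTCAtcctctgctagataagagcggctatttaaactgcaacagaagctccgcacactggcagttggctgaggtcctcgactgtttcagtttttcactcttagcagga
Pparg, upstream start site, chr6:115360894-115361193, plus strand: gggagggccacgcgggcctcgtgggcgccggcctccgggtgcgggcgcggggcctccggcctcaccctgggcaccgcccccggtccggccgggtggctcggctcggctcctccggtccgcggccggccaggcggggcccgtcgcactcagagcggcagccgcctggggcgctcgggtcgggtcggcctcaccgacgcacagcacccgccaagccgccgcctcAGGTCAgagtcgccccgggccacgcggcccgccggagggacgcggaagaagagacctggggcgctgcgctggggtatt
Pparg, next start site, chr6:115362099-115362398, plus strand: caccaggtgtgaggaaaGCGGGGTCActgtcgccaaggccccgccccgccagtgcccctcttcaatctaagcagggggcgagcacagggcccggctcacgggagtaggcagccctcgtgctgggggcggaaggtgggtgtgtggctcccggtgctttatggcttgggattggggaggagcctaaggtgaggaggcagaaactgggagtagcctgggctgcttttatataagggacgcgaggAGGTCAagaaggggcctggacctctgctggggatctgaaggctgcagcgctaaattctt
Cd36, chr5:17835847-17836146, minus strand: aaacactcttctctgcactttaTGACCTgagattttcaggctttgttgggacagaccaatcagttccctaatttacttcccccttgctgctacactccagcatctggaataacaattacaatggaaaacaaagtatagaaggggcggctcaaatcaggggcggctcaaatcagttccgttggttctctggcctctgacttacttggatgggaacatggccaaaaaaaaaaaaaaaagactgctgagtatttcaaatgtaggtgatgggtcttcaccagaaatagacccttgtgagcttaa
Positions count from the start site, negative before it. The Olr1 window held an AP-1 match at -60 and a half-site at -175. Both Pparg windows held a half-site, at -28 and -9, and the one of the next start site also held an antioxidant response element match at -233. The Cd36 window held a half-site at -228. It belongs to a start site inside the annotated gene (chr5:17781690-17888801, minus strand) and not to the outermost start of Cd36. The Marco window held none of the 5 motifs, nor did those of Mrc1, Cd163 and Chil3. The remaining Pparg window held no match either. Scarb1 had no entry. These matches are a description of letters, and no binding was measured.

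Read counts were tested with edgeR's quasi-likelihood test, adjusted over all genes that reached 10 TPM (a level per gene length, scaled to the same total in each culture) in at least 1 culture compared. A gene is called where the adjusted p was under 0.05 and the absolute log2 fold change over 1. With VWF at 3.5 h, 3 of the 6 members tested were called against control, Marco and Olr1 higher and Pparg lower, where 14.7% of all 8200 genes tested were called. With LPS at 3.5 h the called members were the same 3, in the same directions, at a background of 24.5% of 8190 genes. At 16 h, 3 of 5 members tested were called with VWF (Marco higher, Pparg and Cd36 lower, background 8.71%) and 4 of 5 with LPS (Marco higher, Mrc1, Pparg and Scarb1 lower, background 27.6%). The VWF and LPS comparisons at a time share their control cultures. Cd163 and Chil3 stayed under 10 TPM in all 28 cultures and Olr1 in all cultures at 16 h, so these were tested only in fits that also took in genes of low counts (edgeR's filterByExpr), and their values below come from those. With 5 or 6 members tested, the median log2 fold changes were -0.09 and -0.07 with VWF and LPS at 3.5 h and -0.94 and -1.03 at 16 h, beside 0.0015, -0.02, -0.03 and -0.03 over all genes.

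**Figure D1:**
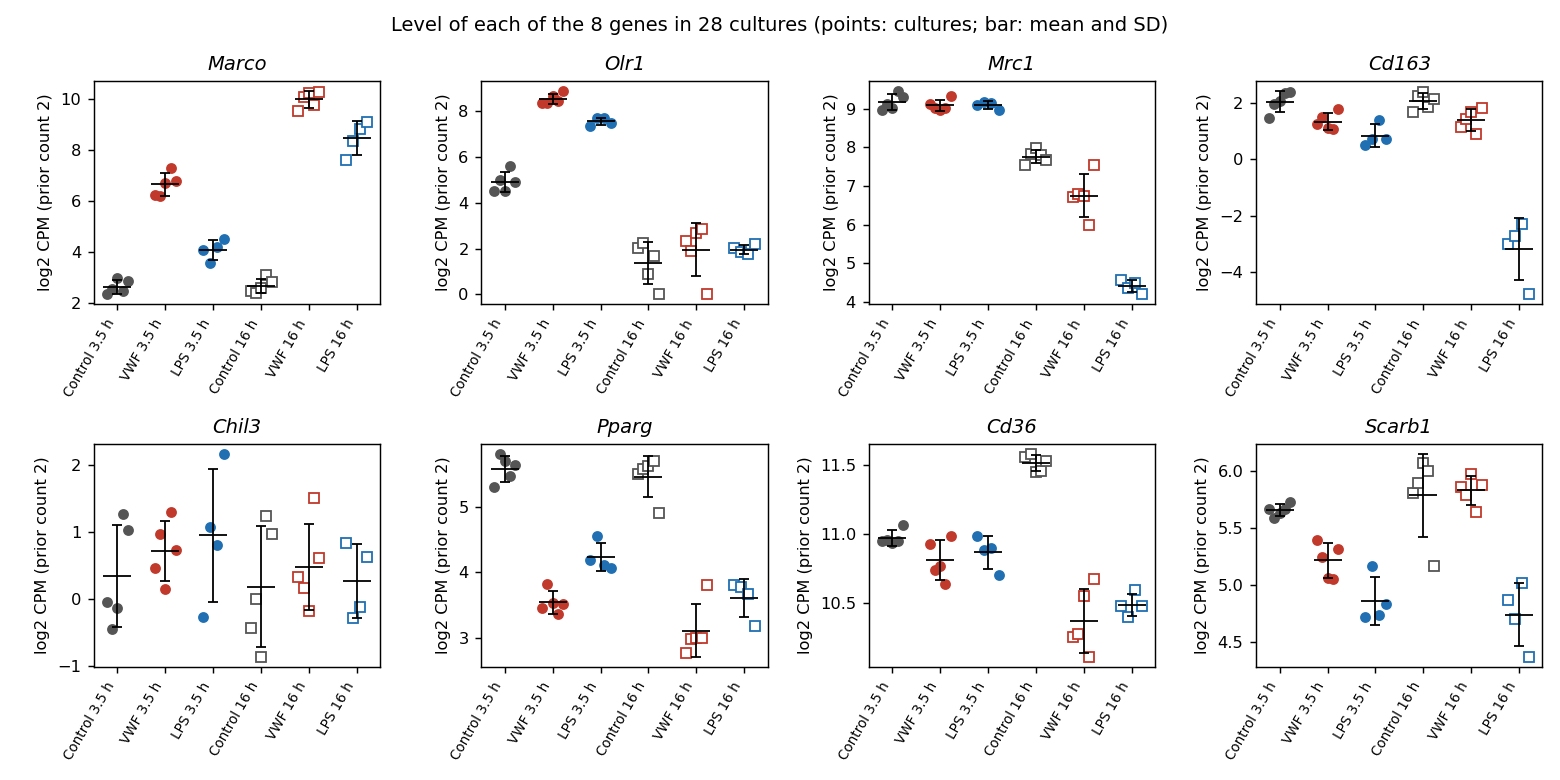
Level of each gene as log2 CPM (prior count 2) on the y axis in every culture (points, filled at 3.5 h and open at 16 h; grey control, red VWF, blue LPS), with the mean and SD of each group as black bars; the y axes differ between panels. Marco was highest in the VWF cultures at 16 h, Olr1 in the VWF cultures at 3.5 h, and Mrc1 and Cd163 were lowest in the LPS cultures at 16 h.

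Marco showed the largest change of the 8 genes against control with either treatment at 16 h. Its gene lies at chr1:120474538-120505024 on the minus strand. In replicate order, Marco stood at 5.04, 5.79, 7.95, 5.43 and 7.16 CPM in control cultures at 3.5 h. With VWF it stood at 75.8, 74.3, 106, 160.3 and 111 CPM. With LPS it stood at 17.0, 11.8, 18.1 and 22.8 CPM. The 3 groups did not overlap, with every VWF culture above every LPS culture and every LPS culture above every control. Marco was 17.1-fold higher with VWF (log2 fold change 4.10 ± 0.24 (SE), adjusted p = 9.5e-08) and 2.81-fold higher with LPS (log2 fold change 1.49 ± 0.20 (SE), adjusted p = 5.6e-05). Scaled by library size alone, the LPS change was 0.97 (adjusted p = 7.6e-04), under the fold threshold, and that scaling moved the median of all genes in this comparison to -0.54.

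At 16 h, Marco stood at 5.50, 5.14, 5.96, 8.43 and 7.08 CPM in controls. In VWF cultures Marco stood at 757, 1085, 1239, 876 and 1273 CPM. In LPS cultures Marco stood at 196, 332, 460.2 and 556 CPM. The lowest VWF culture was above the highest LPS culture, and every LPS culture lay above every control. The fold was 162 with VWF (log2 fold change 7.34 ± 0.24 (SE), adjusted p = 7.0e-08) and 61.9 with LPS (log2 fold change 5.95 ± 0.34 (SE), adjusted p = 5.8e-07), and without control replicate 5 the log2 fold changes were 7.38 and 5.99. The LPS value was 5.71 without LPS replicate 4. The VWF groups also held the highest summed macrophage markers at 16 h (19468 to 26627 CPM against 6236 to 17580 CPM in controls), and that part was not tested. Set directly against LPS, Marco was higher with VWF by 6.16-fold at 3.5 h (log2 fold change 2.62 ± 0.26 (SE), adjusted p = 1.7e-05) and 2.72-fold at 16 h (log2 fold change 1.44 ± 0.30 (SE), adjusted p = 0.0020), the latter at 1.67 without LPS replicate 4.

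In order of mean CPM, Marco ran from VWF at 16 h through LPS at 16 h, VWF at 3.5 h and LPS at 3.5 h to the controls, and only the 2 control groups overlapped. Between the times Marco rose 9.98-fold in VWF cultures (log2 fold change 3.32 ± 0.24 (SE), adjusted p = 4.4e-07) and 22.7-fold in LPS cultures (log2 fold change 4.50 ± 0.37 (SE), adjusted p = 1.0e-05). In controls the difference was 0.04 ± 0.19 (SE, adjusted p = 0.86), and its sign changed with the scaling and the filter. The growth of the effect with time passed as an interaction for VWF (log2 difference 3.26 ± 0.30 (SE), adjusted p = 5.8e-08) and for LPS (4.47 ± 0.39 (SE), adjusted p = 7.0e-08). Without control replicate 5 these were 3.31 and 4.51, and without LPS replicate 4 the second was 4.23.

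Olr1 rose early with both treatments and was low at 16 h in every group. The gene lies at chr6:129485244-129507165 on the minus strand. At 3.5 h Olr1 stood at 22.9, 32.2, 23.1, 48.2 and 30.3 CPM in controls. In VWF cultures Olr1 stood at 329, 329, 409, 350.4 and 473 CPM. In LPS cultures Olr1 stood at 166, 208, 209.5 and 177 CPM. Here too the 3 groups did not overlap. Olr1 was 12.3-fold higher with VWF (log2 fold change 3.62 ± 0.22 (SE), adjusted p = 1.2e-07) and 6.17-fold higher with LPS (log2 fold change 2.63 ± 0.20 (SE), adjusted p = 6.1e-07). The difference between VWF and LPS, 2.02-fold (log2 fold change 1.01 ± 0.13 (SE), adjusted p = 1.0e-04), lay at the fold threshold, and it was 0.92 to 1.00 in 6 of 7 other settings, the lowest with the replicate numbers as blocks, and 1.30 with library size scaling. It was 0.90 to 0.99 without LPS replicate 1 or 4 or without VWF replicate 3 or 5, and the adjusted p stayed under 0.05 in every setting.

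By 16 h, Olr1 had dropped to 4.00, 4.69, 1.79, 3.17 and 0.986 CPM in controls. In VWF cultures Olr1 stood at 5.05, 3.64, 6.42, 7.12 and 0.970 CPM. In LPS cultures Olr1 stood at 4.03, 3.59, 3.33 and 4.56 CPM. All 3 groups overlapped, with replicate 5 lowest in both the control and the VWF group, and in the fit with low counts neither treatment passed (VWF log2 fold change 0.71 ± 0.52 (SE), adjusted p = 0.39; LPS log2 fold change 0.53 ± 0.39 (SE), adjusted p = 0.31). Against 3.5 h, Olr1 was lower 10.6-fold in controls (log2 fold change -3.40 ± 0.41 (SE), adjusted p = 1.5e-04), 80.9-fold with VWF (log2 fold change -6.34 ± 0.45 (SE), adjusted p = 3.6e-07) and 48.1-fold with LPS (log2 fold change -5.59 ± 0.15 (SE), adjusted p = 7.3e-08). The effects of VWF and LPS became smaller with time, by log2 differences of -2.96 ± 0.57 (SE, adjusted p = 4.0e-04) and -2.17 ± 0.46 (SE, adjusted p = 9.5e-04). Without control replicate 5 these were -3.17 and -2.39, and the control fall was -3.18 (adjusted p = 2.3e-05). The LPS difference was -2.27 without LPS replicate 4.

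**Figure D2:**
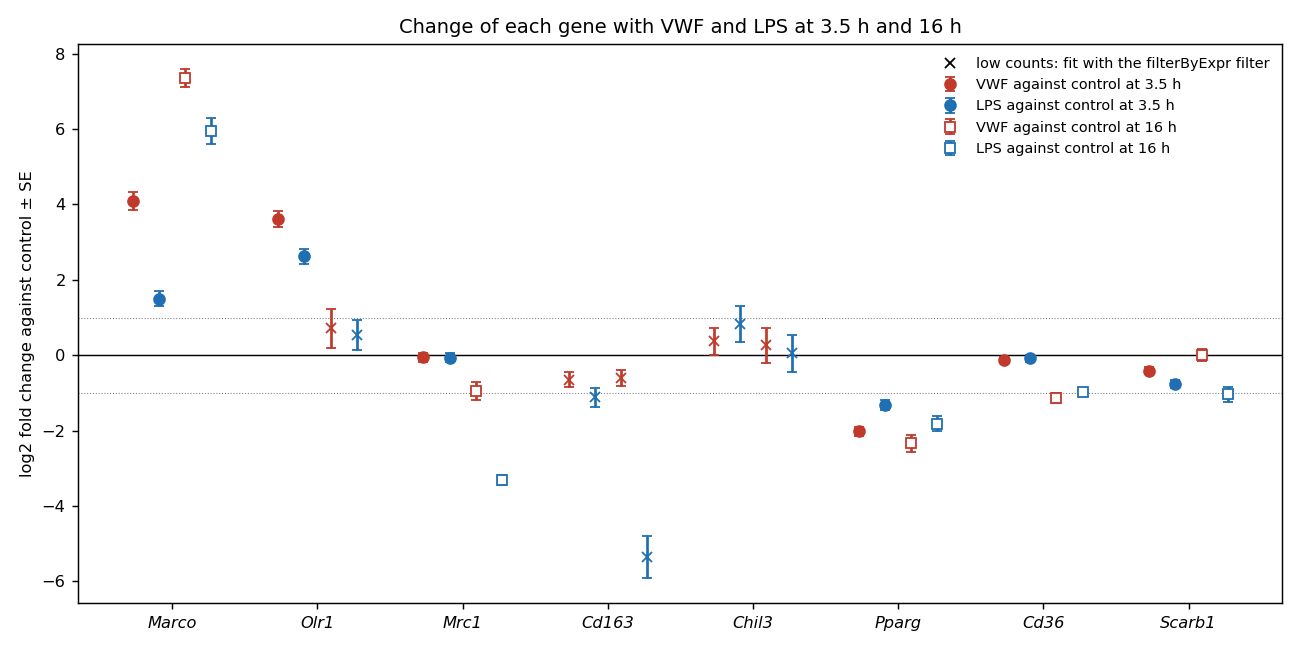
Log2 fold change against the control of the same time (y axis, with the SE as bars) for each gene (x axis), for VWF (red) and LPS (blue) at 3.5 h (filled) and 16 h (open); crosses are genes of low counts, from the fit with edgeR's filterByExpr, in the same left-to-right order, and dotted lines mark the fold threshold. Marco lay far above 0 at 16 h (7.34 and 5.95), Pparg below 0 in all 4 comparisons, and Mrc1 at -3.32 with LPS at 16 h.

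The alternative activation marker Mrc1 did not pass the test with either treatment at 3.5 h and was lower with both at 16 h, most with LPS. It lies at chr2:14229392-14332057 on the plus strand. At 3.5 h, Mrc1 stood at 495, 559, 516, 700.2 and 635 CPM in controls. In VWF cultures Mrc1 stood at 556, 517, 497, 519 and 643 CPM. In LPS cultures Mrc1 stood at 551, 574, 569 and 498 CPM. The 3 groups overlapped, and the fits gave -0.06 ± 0.11 for VWF (SE, adjusted p = 0.73) and -0.06 ± 0.11 for LPS (SE, adjusted p = 0.63). With library size scaling the LPS value was -0.59 (adjusted p = 0.0010), beside the shift of all genes to -0.54.

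At 16 h, controls had 186, 228, 251, 222 and 203 CPM of Mrc1. VWF cultures had 106, 111, 106, 63.4 and 185 CPM. LPS cultures had 23.6, 20.7, 22.7 and 18.4 CPM. No group overlapped another, although VWF replicate 5 lay close below the controls. Mrc1 was 9.97-fold lower with LPS (log2 fold change -3.32 ± 0.13 (SE), adjusted p = 5.8e-08), while with VWF it was 1.92-fold lower, under the fold threshold (log2 fold change -0.94 ± 0.23 (SE), adjusted p = 0.012). Without VWF replicate 5 the VWF value was -1.18 (adjusted p = 9.9e-04). VWF cultures held 5.38-fold more Mrc1 than LPS cultures (log2 fold change 2.43 ± 0.28 (SE), adjusted p = 4.2e-05). Without control replicate 5 the VWF and LPS values were -0.97 (adjusted p = 0.0092) and -3.34. Without LPS replicate 4 the LPS value was -3.26 and the difference between VWF and LPS 2.36.

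Mrc1 was lower at 16 h than at 3.5 h in every group. The fall was 2.65-fold in controls (log2 fold change -1.40 ± 0.12 (SE), adjusted p = 1.9e-05), 4.76-fold with VWF (log2 fold change -2.25 ± 0.23 (SE), adjusted p = 6.8e-06) and 25.2-fold with LPS (log2 fold change -4.66 ± 0.12 (SE), adjusted p = 7.3e-08). The fall exceeded that in controls by -3.24 ± 0.17 with LPS (SE, adjusted p = 3.2e-10), and by -0.86 ± 0.27 with VWF (SE, adjusted p = 0.017), the second under the fold threshold unless VWF replicate 5 at 16 h was left out (-1.10, adjusted p = 3.8e-04) and not past the test with library size scaling (-0.71, adjusted p = 0.080). Without control replicate 5 the control fall was -1.39, and the interactions were -3.26 with LPS and -0.88 with VWF. The LPS interaction was -3.18 without LPS replicate 4.

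Cd163 was scarce in these cultures, and with LPS at 16 h it had 0 to 7 counts per culture. The gene lies at chr6:124304656-124330527 on the plus strand. Its raw counts at 3.5 h were 158, 200, 274, 385 and 252 in controls, or 4.26 ± 1.02 CPM (SD, n = 5). VWF cultures had 132, 137, 112, 93 and 271 counts, or 2.56 ± 0.566 CPM (SD, n = 5). LPS cultures had 54, 68, 102 and 60 counts, or 1.82 ± 0.561 CPM (SD, n = 4). VWF overlapped the controls and LPS did not. In the fit with low counts, where 14.8% of 14153 genes were called for VWF and 27.5% of 14265 for LPS, Cd163 was lower with LPS (log2 fold change -1.12 ± 0.25 (SE), adjusted p = 0.0022), and the VWF value was under the fold threshold (log2 fold change -0.65 ± 0.20 (SE), adjusted p = 0.023).

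At 16 h, controls had 239, 406, 305, 223 and 229 counts of Cd163, or 4.25 ± 0.816 CPM (SD, n = 5). VWF cultures had 139, 228, 201, 104 and 193, or 2.69 ± 0.694 CPM (SD, n = 5). LPS cultures had 4, 6, 7 and 0 counts, and a count of 0 allows up to 3. Every LPS culture was below every other culture of the study. Cd163 was lower with LPS than in controls (log2 fold change -5.35 ± 0.55 (SE), adjusted p = 2.8e-05), where 27.9% of 14624 genes were called. It was higher with VWF than with LPS (log2 fold change 4.77 ± 0.53 (SE), adjusted p = 3.3e-05), where 27.1% were called. The VWF value against control did not pass (log2 fold change -0.61 ± 0.21 (SE), adjusted p = 0.060). From 3.5 h to 16 h Cd163 fell with LPS (log2 fold change -4.24 ± 0.61 (SE), adjusted p = 3.1e-04, background 29.9%), beyond controls by -4.23 ± 0.54 (SE, adjusted p = 6.2e-06, background 24.6%). In controls it was -0.03 ± 0.20 (SE, adjusted p = 0.93).

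Chil3, the third alternative activation marker, was scarce in every group and passed no test against control. It lies at chr3:106147554-106167564 on the minus strand, and 4.93% of the 100-base windows of its transcripts also occur in another gene, mainly its paralogue Chil4, which had 0 counts in all 28 cultures. At 3.5 h the counts of Chil3 were 53, 36, 57, 177 and 96 in controls, 75, 94, 56, 108 and 128 with VWF and 31, 86, 66 and 164 with LPS. At 16 h they were 52, 82, 30, 143 and 99 in controls, 77, 91, 53, 158 and 81 with VWF and 78, 41, 37 and 60 with LPS. All groups overlapped, and replicate 4 was the highest in CPM in 5 of the 6 groups, all but LPS at 16 h. The log2 fold changes against control at 3.5 h were 0.37 ± 0.35 for VWF (SE, adjusted p = 0.48) and 0.82 ± 0.48 for LPS (SE, adjusted p = 0.16), and at 16 h 0.26 ± 0.46 (SE, adjusted p = 0.77) and 0.06 ± 0.49 (SE, adjusted p = 0.94).

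The 11 neutrophil and granulocyte-precursor markers summed to 4.98 to 39.9 CPM and were likewise highest in replicate 4 of every group. Of them Ly6g was at 0 in 25 cultures and S100a8 reached 24.3 CPM. Across the 28 cultures log2 CPM of Chil3 and the log2 of this sum correlated with a Pearson r of 0.49. The 2 genes with the pattern most like Chil3 were the neutrophil granule gene Ngp (r = 0.769 over 28 cultures) and S100a9 (r = 0.733), both on that marker list. Next came Egr1 (r = 0.609), which is not on it. The cultures share groups and replicate numbers, and the part of granulocytes in the Chil3 counts was not tested.

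**Figure D3:**
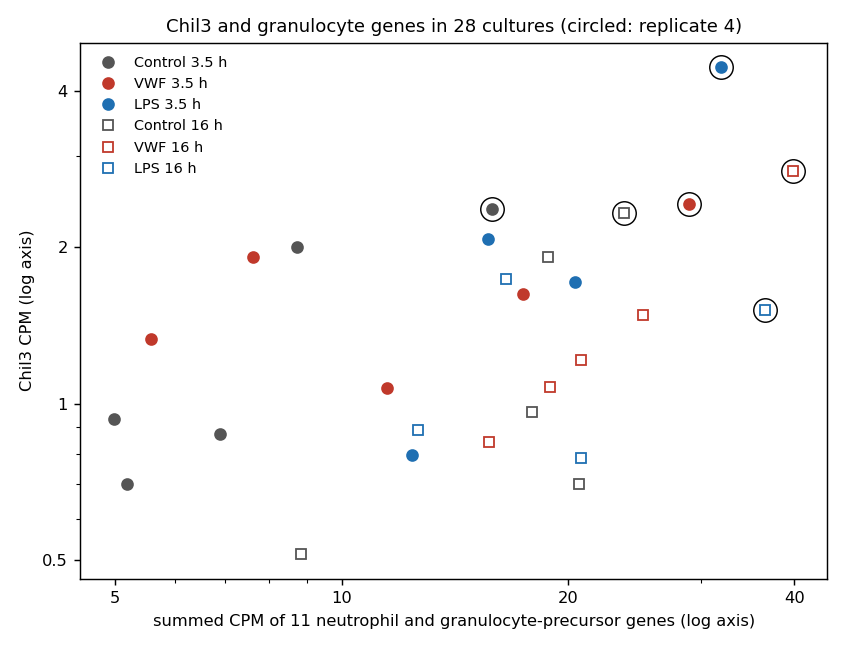
Chil3 level in CPM (y axis, log scale) against the summed CPM of 11 neutrophil and granulocyte-precursor markers (x axis, log scale) in the 28 cultures, coloured by group, with replicate 4 of each group circled. Replicate 4 lay to the right within each group and reached 4.44 CPM of Chil3 in the LPS group at 3.5 h.

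Pparg was lower with both treatments at both times. The gene lies at chr6:115360951-115490399 on the plus strand. At 3.5 h it stood at 39.4, 55.7, 51.5, 44.0 and 49.7 CPM in controls. In VWF cultures Pparg stood at 11.02, 14.2, 11.6, 10.3 and 11.4 CPM. In LPS cultures Pparg stood at 18.2, 23.5, 17.3 and 16.8 CPM. No group overlapped another, and VWF was the lowest. Pparg was 4.03-fold lower with VWF (log2 fold change -2.01 ± 0.12 (SE), adjusted p = 1.1e-07) and 2.50-fold lower with LPS (log2 fold change -1.32 ± 0.14 (SE), adjusted p = 7.2e-06). VWF lay below LPS by 1.60-fold, under the fold threshold (log2 fold change -0.67 ± 0.13 (SE), adjusted p = 0.0019).

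At 16 h, Pparg stood at 44.9, 47.4, 49.0, 51.8 and 29.9 CPM in controls, with replicate 5, the culture that stood apart, lowest. In VWF cultures Pparg stood at 6.81, 7.92, 7.99, 7.97 and 14.0 CPM. In LPS cultures Pparg stood at 14.0, 13.7, 12.8 and 9.05 CPM. Both treated groups lay below all controls and overlapped each other. The fall was 5.04-fold with VWF (log2 fold change -2.33 ± 0.23 (SE), adjusted p = 2.9e-05) and 3.51-fold with LPS (log2 fold change -1.81 ± 0.19 (SE), adjusted p = 3.4e-05), and without control replicate 5 the values were -2.45 and -1.93. Without LPS replicate 4 the LPS value was -1.69. The difference between VWF and LPS did not pass (log2 fold change -0.47 ± 0.23 (SE), adjusted p = 0.11), but with the replicate numbers as blocks it was -0.68 (adjusted p = 0.0039). It also passed the adjusted p, under the fold threshold, without LPS replicate 4 (-0.60, adjusted p = 0.040), without VWF replicate 5 (-0.68, adjusted p = 0.0059) and in a fit of all 6 groups (-0.46, adjusted p = 0.034). In controls the 2 times differed by -0.10 ± 0.15 (SE, adjusted p = 0.61). The change of the effect with time was -0.30 ± 0.25 for VWF (SE, adjusted p = 0.41) and -0.48 ± 0.23 for LPS (SE, adjusted p = 0.093), and without control replicate 5 the LPS value was -0.59 (adjusted p = 0.014), or -0.36 without LPS replicate 4 at 16 h (adjusted p = 0.17).

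Cd36, the most abundant of the 8 genes in every group but VWF at 16 h, did not pass the test against control at 3.5 h and was lower with both treatments at 16 h. It lies at chr5:17781690-17888801 on the minus strand. At 3.5 h it stood at 1979.7, 1986, 1955, 1977 and 2150.0 CPM in controls. In VWF cultures Cd36 stood at 1948, 1708, 1744, 1599 and 2032 CPM. In LPS cultures Cd36 stood at 2032, 1897, 1908 and 1666 CPM. All 3 groups overlapped, with VWF at -0.13 ± 0.09 (SE, adjusted p = 0.28) and LPS at -0.08 ± 0.09 (SE, adjusted p = 0.45) on the log2 scale. Scaled by library size alone, the values were -0.34 (adjusted p = 0.012) and -0.60 (adjusted p = 1.2e-04), with the median of all genes at -0.22 and -0.54.

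At 16 h, Cd36 stood at 3021, 3066, 2796, 2807 and 2964 CPM in controls. In VWF cultures Cd36 stood at 1225, 1239, 1504, 1107 and 1635 CPM. In LPS cultures Cd36 stood at 1426, 1353, 1549 and 1431 CPM. Both treated groups lay well below the controls and overlapped each other. Cd36 fell 2.20-fold with VWF (log2 fold change -1.13 ± 0.12 (SE), adjusted p = 4.9e-05), and with LPS it was 1.98-fold lower, just under the fold threshold (log2 fold change -0.99 ± 0.10 (SE), adjusted p = 2.4e-05), with -1.04 in a fit of all 6 groups. Without control replicate 5 the values were -1.13 and -0.99, and without LPS replicate 4 the LPS value was -0.99. VWF and LPS differed by -0.10 ± 0.13 (SE, adjusted p = 0.55), and this sign turned with library size scaling (0.35). From 3.5 h to 16 h, Cd36 was 1.47-fold higher in controls (log2 fold change 0.55 ± 0.08 (SE), adjusted p = 4.3e-04), and lower with VWF (log2 fold change -0.42 ± 0.12 (SE), adjusted p = 0.011) and with LPS (log2 fold change -0.36 ± 0.11 (SE), adjusted p = 0.017), none of them past the fold threshold. The adjusted p of these falls rose to 0.063 for VWF and 0.056 for LPS in other settings, and to 0.058 for LPS with a culture left out. The effects of time differed from controls by -0.99 ± 0.14 with VWF (SE, adjusted p = 1.8e-05) and -0.89 ± 0.12 with LPS (SE, adjusted p = 8.5e-06), or -0.98 and -0.89 without control replicate 5, where the control rise was 0.54. The VWF difference lay at the fold threshold. It passed in 8 fits with another setting or a culture left out, among them DESeq2 (-1.003), and reached -1.07 without VWF replicate 5 at 16 h. Without LPS replicate 4 the LPS difference was -0.90.

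Scarb1, which encodes the high-density lipoprotein receptor SR-BI, was called lower with LPS at 16 h alone, while at 3.5 h both treatments passed the adjusted p under the fold threshold. It lies at chr5:125277087-125341094 on the minus strand. At 3.5 h Scarb1 stood at 50.8, 48.2, 49.6, 50.7 and 53.1 CPM in controls. In VWF cultures Scarb1 stood at 42.2, 37.9, 33.4, 33.1 and 39.9 CPM. In LPS cultures Scarb1 stood at 26.2, 35.9, 26.5 and 28.4 CPM. Both treated groups lay below all controls and overlapped each other. The differences were under the fold threshold, at 1.33-fold with VWF (log2 fold change -0.41 ± 0.08 (SE), adjusted p = 0.0020) and 1.70-fold with LPS (log2 fold change -0.77 ± 0.10 (SE), adjusted p = 6.2e-05), and with library size scaling the LPS value was -1.29. VWF lay above LPS by 1.30-fold, also under the fold threshold (log2 fold change 0.37 ± 0.12 (SE), adjusted p = 0.028). That adjusted p rose to 0.061 in another setting and to 0.081 with a culture left out.

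At 16 h, Scarb1 stood at 56.0, 59.5, 67.4, 64.0 and 35.8 CPM in controls, replicate 5 being the lowest. In VWF cultures Scarb1 stood at 58.0, 55.3, 63.0, 49.9 and 58.9 CPM. In LPS cultures Scarb1 stood at 29.1, 26.0, 32.3 and 20.6 CPM. VWF overlapped the controls and LPS overlapped neither. Scarb1 was 2.04-fold lower with LPS than in controls (log2 fold change -1.03 ± 0.20 (SE), adjusted p = 0.0018) and 2.12-fold higher with VWF than with LPS (log2 fold change 1.08 ± 0.14 (SE), adjusted p = 7.8e-05). Without LPS replicate 4 these values were -0.92 (adjusted p = 0.0049) and 0.97 (adjusted p = 3.4e-05), under the fold threshold, and without control replicate 5 the first was -1.16 (adjusted p = 8.6e-05). It was also under the threshold without control replicate 3 or 4, and in both fits with low counts (-0.95 and -0.94). The VWF value was 0.0026 ± 0.16 (SE, adjusted p = 0.99), and -0.12 without control replicate 5 (adjusted p = 0.26). Between the times, VWF cultures held 1.54-fold more Scarb1 at 16 h (log2 fold change 0.62 ± 0.10 (SE), adjusted p = 1.4e-04), and in controls the difference was 0.17 ± 0.14 (SE, adjusted p = 0.36), or 0.29 without replicate 5 (adjusted p = 0.0046). The interaction was 0.43 ± 0.18 for VWF (SE, adjusted p = 0.069) and -0.25 ± 0.22 for LPS (SE, adjusted p = 0.37). Without control replicate 5 these were 0.32 (adjusted p = 0.038) and -0.37 (adjusted p = 0.063). The VWF value also passed the adjusted p without any 1 of 4 other cultures (0.48 to 0.53, adjusted p = 0.029 to 0.047).

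Counted by comparison between the treatments, 2 of 6 members tested were called between VWF and LPS at 3.5 h (Marco and Olr1, both higher with VWF, background 11.4% of 7500 genes), the second at the threshold as given above. At 16 h, 3 of 5 were called (Mrc1, Marco and Scarb1, all higher with VWF, background 25.5%), and the same 3 were called with the replicate numbers as blocks. Over time, 2 of 6 were called in controls (Mrc1 and Olr1 lower, background 9.11%), 3 of 6 with VWF (Marco higher, Mrc1 and Olr1 lower, background 21.4%) and 3 of 5 with LPS (the same 3 genes, background 28.1%). The change of the effect with time was called for 2 of 6 members with VWF (Marco and Olr1, background 13.5%) and for 3 of 6 with LPS (Marco, Mrc1 and Olr1, background 26.3%). The VWF count was 4 without VWF replicate 5 at 16 h, with Mrc1 and Cd36 added. The LPS changes over time without LPS replicate 4 at 16 h were 4.27 for Marco, -4.59 for Mrc1, -5.68 for Olr1, -0.35 for Cd36 and -0.47 for Pparg.

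Levels can be compared between genes only per length, as TPM. In controls at 3.5 h the order of mean TPM was Cd36 at 1812 ± 174, Mrc1 at 297 ± 66.5, Pparg at 52.5 ± 6.20 and Olr1 at 28.9 ± 11.8 (SD, n = 5). Scarb1 at 19.2 ± 1.93, Marco at 10.5 ± 1.87, Chil3 at 2.81 ± 1.75 and Cd163 at 2.54 ± 0.754 followed. Cd36 ranked 67 among all genes by mean TPM in controls at 3.5 h and Cd163 ranked 10407. With VWF at 16 h, Marco led at 1528 ± 426 TPM (SD, n = 5), ranked 82 of all genes, above Cd36 at 1051 ± 247 and Mrc1 at 50.8 ± 21.7. With LPS at 16 h, Cd36 led at 840.4 ± 144 TPM (SD, n = 4), with Marco at 412 ± 154, Pparg at 8.88 ± 2.40, Mrc1 at 7.06 ± 1.59 and Cd163 at 0.0380 ± 0.0300. With VWF at 3.5 h Olr1 stood at 298 ± 63.5 TPM (SD, n = 5), second to Cd36. The joined exons of Scarb1 span 8500 bases against 3093 in its longest transcript, and with that length its mean TPM in controls at 3.5 h was 40.1.

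**Figure D4:**
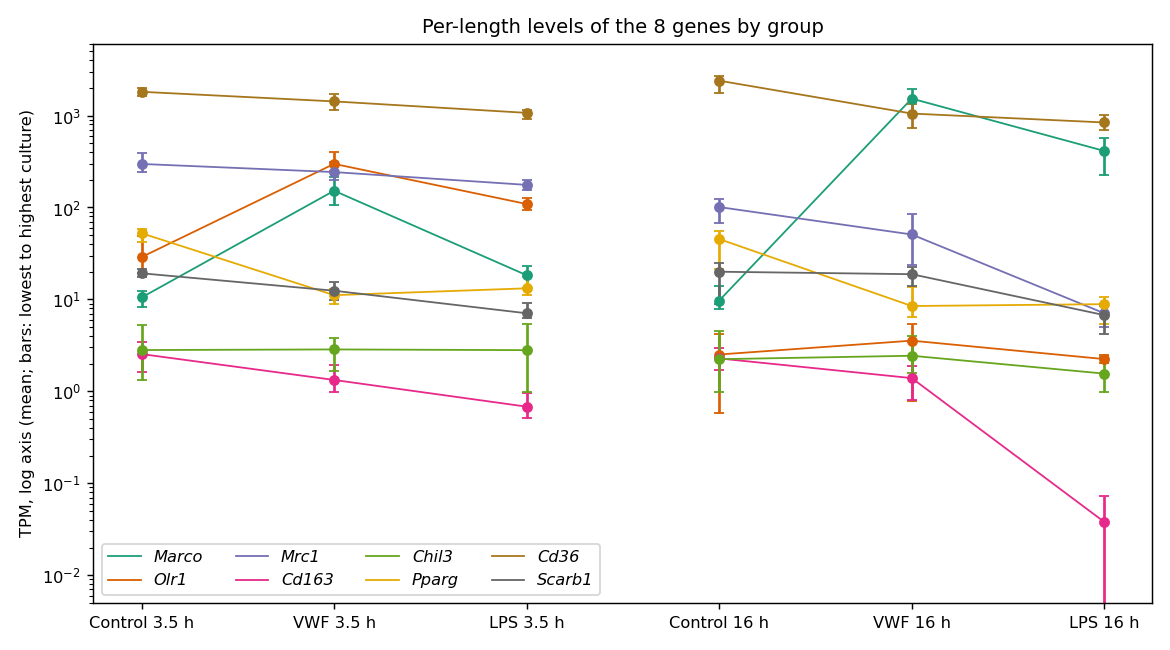
Mean TPM of each gene (y axis, log scale) in the 6 groups (x axis), with bars from the lowest to the highest culture and lines that only join the same gene within a time. Marco rose from 9.72 TPM in controls to 1528 TPM with VWF at 16 h, and the bar of Cd163 with LPS at 16 h runs to the bottom of the axis, with 1 culture at 0.

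Within groups, the members with the smallest spread over cultures were Scarb1 and Cd36 in controls at 3.5 h, with coefficients of variation of 3.53% and 3.95%. The widest were Cd163 with LPS at 16 h (75.4%, on 0 to 7 counts) and Chil3 with LPS at 3.5 h (68.9%). In order of mean CPM over the groups, Mrc1 ran from the 3 groups at 3.5 h, which overlapped, to control, VWF and LPS at 16 h, which did not. Pparg ran from the 2 control groups, which overlapped, to LPS at 3.5 h, then LPS at 16 h, VWF at 3.5 h and VWF at 16 h, each of which overlapped the next. Cd36 was highest in controls at 16 h, apart from all other groups, and lowest in the 2 treated groups at 16 h, which overlapped. For Scarb1 the controls at both times and VWF at 16 h formed the upper range and overlapped, and VWF at 3.5 h and both LPS groups the lower, into which control replicate 5 at 16 h also reached (35.8 CPM).

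Of the 17 other scavenger receptors on a list by name, 10 were tested. With VWF at 3.5 h, 2 were higher and 0 lower: Cxcl16, a transmembrane chemokine that binds oxidised lipoprotein (1.98 ± 0.13, adjusted p = 2.7e-07 as log2 fold change ± SE), and Msr1, the class A receptor next to Marco in kind (1.75 ± 0.10, adjusted p = 6.4e-08). With LPS at 3.5 h both were higher as well (2.00 ± 0.12, adjusted p = 7.3e-08; 1.53 ± 0.09, adjusted p = 8.2e-08), and Stab1, a clearance receptor of endothelium and macrophages, and Lrp1, a large endocytic receptor, were lower (-1.46 ± 0.16, adjusted p = 1.1e-05; -1.14 ± 0.17, adjusted p = 1.4e-04). At 16 h Cxcl16 and Msr1 were higher with VWF (2.45 ± 0.23, adjusted p = 2.6e-05; 1.78 ± 0.12, adjusted p = 2.6e-06) and with LPS (3.08 ± 0.28, adjusted p = 1.4e-05; 2.13 ± 0.13, adjusted p = 6.2e-07). The β-glucan receptor Clec7a was lower with VWF (-1.49 ± 0.15, adjusted p = 4.5e-05) and LPS (-1.57 ± 0.13, adjusted p = 7.2e-06), and Colec12 was lower with LPS (-1.47 ± 0.15, adjusted p = 2.5e-05). At 16 h 2 were higher and 1 lower with VWF, and 3 higher and 2 lower with LPS. Beside these counts, the share of all genes called was 14.7% and 24.5% with VWF and LPS at 3.5 h and 8.71% and 27.6% at 16 h. The medians of the list were -0.14, -0.06, -0.04 and -0.03 in the order VWF and LPS at 3.5 h, then VWF and LPS at 16 h, near the all-gene medians given above.

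Of 20 other genes linked to alternative activation, 10 to 12 were tested against control. The macrophage chemokines Ccl22 and Ccl17 rose with VWF at 3.5 h (5.09 ± 0.39, adjusted p = 8.4e-07; 4.46 ± 0.56, adjusted p = 4.8e-05), and Ccl22 and the cytokine gene Il10 rose with LPS (6.999 ± 0.34, adjusted p = 1.4e-08; 6.47 ± 0.22, adjusted p = 9.7e-10). At most 2 genes are named per direction and comparison. A gene given for 1 treatment, such as Il10, may therefore also have changed with the other. The summed dendritic cell markers were also higher at 3.5 h with VWF (13.8 to 19.3 CPM) and LPS (22.1 to 27.4 CPM) than in controls (1.35 to 1.97 CPM), and that part was not tested. Egr2, a transcription factor gene, was lower with VWF (-1.27 ± 0.14, adjusted p = 1.3e-05) and LPS (-3.10 ± 0.15, adjusted p = 1.7e-08) at 3.5 h, and Klf4 was lower with VWF (-1.62 ± 0.16, adjusted p = 7.3e-06). At 16 h Arg1, which encodes arginase 1, was higher with VWF (5.88 ± 0.82, adjusted p = 3.5e-04) and with LPS (7.78 ± 0.61, adjusted p = 4.4e-06). The eosinophil chemokine gene Ccl24 was lower with VWF at 16 h (-8.23 ± 0.46, adjusted p = 1.2e-06), and Clec10a, a galactose-binding lectin, was lower with LPS (-3.08 ± 0.24, adjusted p = 4.1e-06). The list counts were 4 higher and 2 lower with VWF and 5 and 1 with LPS at 3.5 h, and 2 and 4 with VWF and 5 and 2 with LPS at 16 h, beside 14.7%, 24.5%, 8.71% and 27.6% of all genes called, with list medians of 0.05, 0.14, -0.32 and 0.22. Retnla had at most 2 counts in a culture and Chil4 had 0 in all, which allows up to 3 counts per culture.

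**Figure D5:**
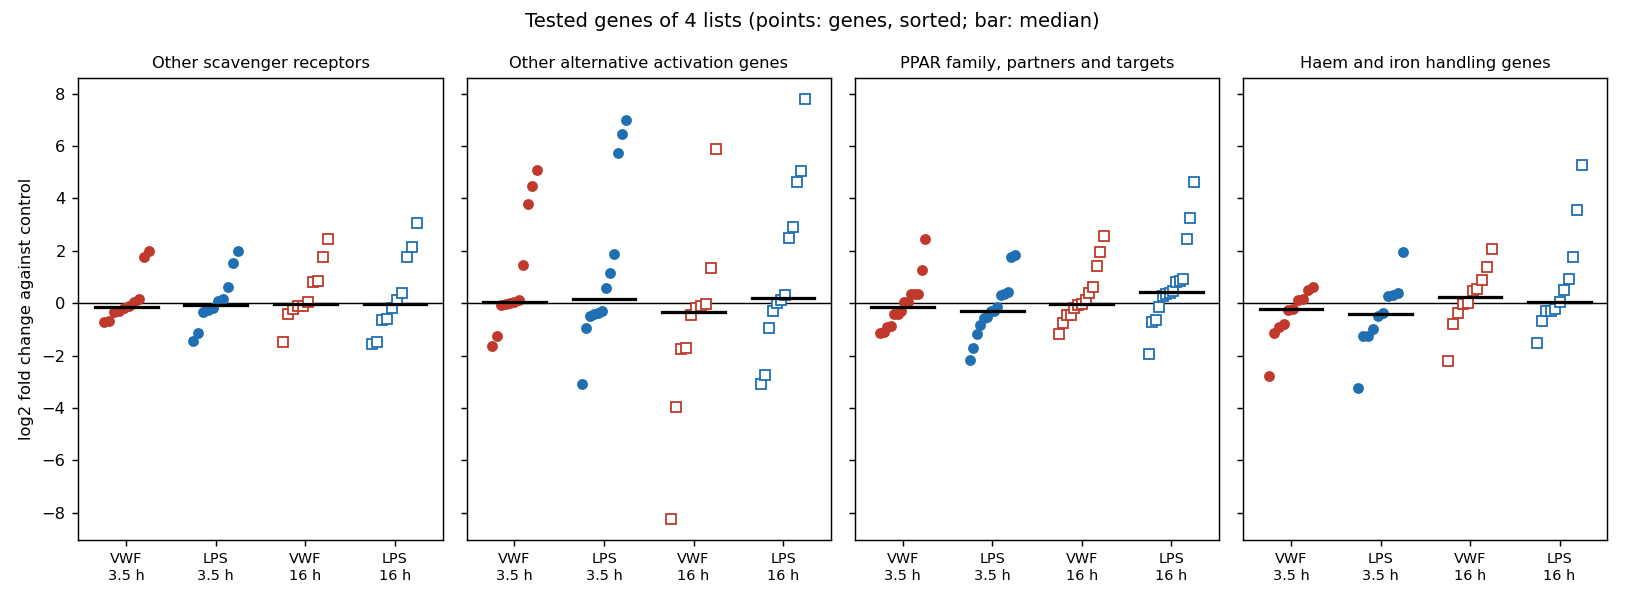
Log2 fold change against control (y axis) of every tested gene of 4 lists (panels) for VWF (red) and LPS (blue) at 3.5 h (filled) and 16 h (open), sorted within each column, with the median as a black bar. The medians lay between -0.42 and 0.42, while single genes reached -8.23 (Ccl24 with VWF at 16 h) and 7.78 (Arg1 with LPS at 16 h).

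Among 18 genes of the PPAR family, its partners and its targets, 13 or 14 were tested. Rxra, the partner of PPARγ, was lower at 3.5 h with VWF (-1.09 ± 0.10, adjusted p = 4.1e-06) and LPS (-2.19 ± 0.10, adjusted p = 9.9e-09), and Ppard was lower with LPS (-1.71 ± 0.17, adjusted p = 4.6e-06). Acsl1, a fatty acyl-CoA synthetase gene, was higher with VWF and LPS at 3.5 h (2.43 ± 0.17, adjusted p = 4.3e-07; 1.85 ± 0.16, adjusted p = 1.9e-06) and at 16 h (1.96 ± 0.22, adjusted p = 8.0e-05; 4.62 ± 0.26, adjusted p = 5.0e-07). Nr1h3, which encodes LXRα, was higher with VWF at 16 h (2.56 ± 0.11, adjusted p = 1.8e-07). From 3.5 h to 16 h Nr1h3 rose with LPS (2.27 ± 0.10, adjusted p = 4.7e-07), while it fell in controls (-1.36 ± 0.11, adjusted p = 9.0e-06). As at most 2 genes are named per direction and comparison, a gene given for 1 treatment may also have changed with the other. Lpl, the lipoprotein lipase gene, was lower at 16 h with VWF (-1.17 ± 0.27, adjusted p = 0.0081) and LPS (-1.94 ± 0.32, adjusted p = 6.3e-04). Fabp4, a fatty acid carrier and known Pparg target, was higher with LPS at 3.5 h (1.78 ± 0.18, adjusted p = 5.4e-06). In all 2 were higher and 2 lower with VWF and 2 and 3 with LPS at 3.5 h, and 3 and 1 with each at 16 h, beside 14.7%, 24.5%, 8.71% and 27.6% of all genes called, with list medians of -0.13, -0.30, -0.03 and 0.42. In Acsl1, 8.45% of the 100-base windows also occur in another gene, and in Cxcl16 14.2%, so counts of these genes are less certain.

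Cd163 takes up haemoglobin, and 10 or 11 of 12 haem and iron handling genes were tested beside it. At 3.5 h Slc40a1, the iron exporter gene, was lower with VWF (-1.12 ± 0.14, adjusted p = 3.9e-05 as log2 fold change ± SE), and Bach1, a repressor of haem oxygenase genes, was higher with LPS (1.95 ± 0.12, adjusted p = 7.1e-08). At 16 h Hmox1, which encodes haem oxygenase 1, was higher with VWF (2.08 ± 0.18, adjusted p = 1.6e-05) and LPS (3.57 ± 0.15, adjusted p = 8.7e-08). Spic, a transcription factor gene of iron-recycling macrophages, was higher with LPS at 16 h (5.27 ± 0.19, adjusted p = 5.0e-08), and Slc40a1 was lower with VWF (-2.22 ± 0.39, adjusted p = 0.0017) and LPS (-1.52 ± 0.20, adjusted p = 1.4e-04). Counts were 0 higher and 2 lower with VWF and 1 and 3 with LPS at 3.5 h, and 2 and 1 with VWF and 3 and 1 with LPS at 16 h, beside the same shares of all genes called (14.7%, 24.5%, 8.71% and 27.6%), with medians of -0.23, -0.42, 0.23 and 0.04.

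The genes with the pattern most like each member, by Pearson correlation of log2 CPM over the 28 cultures among 8866 genes, were Gas6 for Mrc1 (r = 0.988), Atp2a3 for Cd36 (0.969), Siglece for Marco (0.963), Csnk2a2 for Olr1 (0.970), Cdca7l for Scarb1 (0.980) and Tmem154 for Pparg (0.918). Among 8867 genes, Galc was most like Cd163 (0.976). Next came Slc9a9 and Cbfb for Mrc1, Acbd5 and Ephx1 for Cd36, Ly6i and Hp for Marco, and Rcl1 and Smndc1 for Olr1. For Scarb1 these were Dhcr7 and Cbx3, for Pparg Lmo2 and Atp6v0d2, and for Cd163 Ccnb1 and Troap. Cd163 had 0 to 7 counts with LPS at 16 h and stood there at -4.80 to -2.30 log2 CPM, against at least 0.506 in all other cultures. How far its correlations rest on these low counts was not tested. Cultures of a group share their treatment and time, so these correlations describe shared differences between groups.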

How the data were processed

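RNA-seq reads of 28 BMDM cultures had been aligned to GRCm38 (mm10), with STAR named in the submitters' processing notes, and the authors deposited a table of raw read counts per gene and culture, which was used as it stands. Which annotation was counted, whether strand was used and how multi-mapping reads were handled was not given in the sources used here. Groups came from the sample labels. The 8 genes and the gene lists were chosen with earlier results of these data known.

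TPM was computed from the counts with the joined exon lengths of GENCODE vM21 (GRCm38). For each comparison, genes with at least 10 TPM in at least 1 of its cultures entered edgeR 4.0.16 (R 4.3.3, limma 3.58.1), with TMM scaling, the quasi-likelihood test and Benjamini-Hochberg adjustment over all genes tested. A call needed an adjusted p under 0.05 and an absolute log2 fold change over 1. Only the cultures compared entered a fit, and the change of an effect with time was the interaction in a fit of 4 groups. CPM used the TMM scaling over all cultures, and log2 CPM a prior count of 2. From each list the genes with the largest called changes in each direction were named, at most 2 in each direction, and from the correlations the 3 closest genes. Some genes of the lists are not reported here by name. The scripts were tested on simulated data. Promoters came from RefSeq (GRCm38.p6), which held 7 of the 8 genes.

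Alternatives were DESeq2 1.42.0, its size factors, library size alone, 2 other filters, all groups in 1 fit, replicate numbers as blocks, and leaving out each culture. No 2 of the 52 pairs of cultures within a group agreed within sampling noise (lowest chi-square per degree of freedom 15.8). By their deviations from the group means, all same-numbered pairs correlated above 0.1 only between VWF and LPS at 16 h (4 pairs, 0.20 to 0.81). Of these, 3 correlated best with their own number. Between VWF and control, 4 of 5 pairs at 3.5 h and 3 of 5 at 16 h correlated above 0.1. Whether the numbers pair the cultures is therefore not settled, and the main tests did not use them. Depth was 41131209 to 77699206 counts per culture, and intervals from counts cover counting error only.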

Additional observations from a re-analysis of the deposited data

Results flagged for a closer look

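In 2 of the 48 groups of values (8 genes in 6 groups), 1 culture lay far from the others, and chance flags about 1 in 20 groups. Pparg stood at 14.0 CPM in VWF replicate 5 at 16 h, where the nearest of the other 4 cultures had 7.99 CPM. Cd36 stood at 2150.0 CPM in control replicate 5 at 3.5 h, where the nearest had 1986 CPM.

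For 4 genes the effect of treatment differed between 3.5 h and 16 h by the interaction in edgeR, with both treatments. The VWF effect on Marco was larger at 16 h by a log2 difference of 3.26 (adjusted p = 5.8e-08) and the LPS effect by 4.47 (adjusted p = 7.0e-08). The effect on Mrc1 was more negative at 16 h by -0.86 with VWF (adjusted p = 0.017) and by -3.24 with LPS (adjusted p = 3.2e-10). For Cd36 the differences were -0.99 with VWF (adjusted p = 1.8e-05) and -0.89 with LPS (adjusted p = 8.5e-06). For Olr1, whose rise was seen at 3.5 h, they were -2.96 with VWF (adjusted p = 4.0e-04) and -2.17 with LPS (adjusted p = 9.5e-04). The VWF and LPS interactions share their control cultures.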

How the results depend on the processing

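Over 434 values of a gene in a comparison under another setting, 410 kept their direction and stayed called or not called. So did 664 of 696 when 1 culture was left out. A value that crossed the adjusted p threshold without a change of call is counted among these. The causes of the changes were not tested. Over all settings and left-out cultures the count of members called ran from 3 to 5 for LPS at 16 h (4 as reported), from 2 to 4 for VWF against LPS at 16 h (3) and from 3 to 4 for VWF at 16 h, LPS at 3.5 h, LPS over time and the LPS interaction (3 each), and 2 counts moved by more than 1.5 times. For VWF against LPS at 3.5 h the count was 2, and 1 with DESeq2, its size factors, either other filter, all groups in 1 fit or the replicate block, and 1 to 2 with a culture left out. For the change of the VWF effect with time it was 2, with 2 to 3 in the other settings and 2 to 4 with a culture left out. Signs turned only for differences near 0. For Mrc1, LPS against control at 3.5 h was 0.012 with filterByExpr (-0.11 to 0.011 with a culture left out), and VWF against LPS at 3.5 h was -0.039 with filterByExpr, -0.028 with no filter and -0.045 with the replicate block (-0.067 to 0.055). With library size scaling Cd36 was 0.26 between VWF and LPS at 3.5 h (-0.10 to 0.0097 with a culture left out) and 0.35 at 16 h, Scarb1 -0.064 for VWF at 16 h (-0.12 to 0.078), and Marco -0.0039 between the control times, or -0.032 with no filter (-0.070 to 0.14). Pparg between the control times was -0.17 to 0.0091 with a culture left out. Between VWF and LPS at 16 h, where all 4 same-numbered pairs correlated above 0.1, the replicate block changed no other member's result than that of Pparg, at -0.68. In the other comparisons not every pair correlated above 0.1. In no comparison did every culture correlate best with its own number, although stromal and granulocyte marker sums were alike by number. With the block Mrc1 with VWF at 16 h was -1.02 (adjusted p = 0.028) and Olr1 between VWF and LPS at 3.5 h 0.92.

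Library size scaling moved the median of all genes to -0.22 and -0.54 (VWF and LPS at 3.5 h), 0.30 (VWF against LPS at 3.5 h), -0.57 (LPS at 16 h) 0.44 (VWF against LPS at 16 h), 0.11 (VWF over time) and 0.14 (the VWF interaction). The share of calls that were higher went from 62.4% to 48.8% for VWF and from 52.1% to 24.7% for LPS at 3.5 h, from 41.2% to 68.8% between them, from 55.2% to 26.0% for LPS at 16 h, from 43.3% to 71.1% between VWF and LPS at 16 h, and from 40.5% to 51.8% for the VWF interaction. Genes called were 1206, 2010, 856, 679, 2210 and 1932 in the comparisons of treatments (VWF, LPS and VWF against LPS at 3.5 h, then at 16 h), and 2099, 3917, 1776, 1362, 4087 and 3897 with filterByExpr or 2366, 4542, 1942, 1378, 4224 and 4242 with no filter, as more genes were tested. Over time they were 759, 1696 and 1964 in control, VWF and LPS cultures against 1565, 3458 and 4116 with filterByExpr and 1524, 3974 and 4298 with no filter, and for the VWF and LPS interactions 1171 and 2301 against 1972 and 3790 or 1904 and 3613. Library size moved 16 of 48 group means in CPM by more than 1 SD, and the longest transcript 14 of 48 in TPM. Cd163 and Chil3 rested on 0 to 406 and 30 to 177 counts per culture, which limits their precision.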

Other observations

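The summed stromal markers differed between replicate numbers in a like way in most groups. Replicate 1 was highest in all 6 groups (312.6, 398, 192, 173, 281 and 325 CPM in control, VWF and LPS at 3.5 h and then at 16 h), and replicate 3 was the lowest in 4 of the 6 groups. In control replicate 5 at 16 h, the culture that stood apart, the sum was 16.7 CPM, the lowest of the 28.

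Between VWF and LPS at 16 h, 8 of 11 genes of the alternative activation list tested were called lower with VWF and 0 higher, where 25.5% of all genes were called in either direction. The list median was -1.85 beside 0.0022 over all genes. Library size scaling moved the median of all genes in this comparison to 0.44. The summed dendritic cell markers were 20.02 to 40.9 CPM with LPS and 1.17 to 4.31 CPM with VWF, and that part was not tested. Ccl24 and Il10 had the largest of these differences. Of the alternative activation markers among the 8 genes, Mrc1 went the other way here, higher with VWF by a log2 fold change of 2.43. So did Cd163, by 4.77 in the fit with low counts, where Chil3 did not pass (0.25, adjusted p = 0.64).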
